A study of Homo sapiens with 24 samples.

Results

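The response to interferon-alpha was compared between T47D-co and T47D-Y, a pair of sublines of T47D, a human breast cancer line, in the 12 RNA-seq libraries of a 24-library series that received ethanol vehicle (EtOH) and no progestin. T47D-co is labelled as carrying the progesterone receptor and T47D-Y as lacking it, so the line contrast spans everything that separates these sublines and not the receptor alone. The 4 groups, with 3 biological replicates each, were T47D-co with interferon-alpha (IFN, 20 IU per ml for 18 hours, then EtOH for 6 hours), T47D-co with water in place of IFN, T47D-Y with IFN and T47D-Y with water, the last pair on the same schedule. Members were chosen by treatment alone, and 20162 genes were tested. The other 12 libraries received the synthetic progestin R5020 (10 nM) in place of EtOH and give the same contrast in separate cultures.

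The quantity followed is the interaction of line and IFN: the log2 change with IFN in T47D-co minus the log2 change with IFN in T47D-Y. It equals the line difference with IFN (the end difference) minus the line difference with water (the start difference), so a negative interaction can stand for a higher start in T47D-co, a lower end in T47D-co, or a mix. The start and end differences share libraries with the interaction, and they are given beside it as its parts. The study's title concerns attenuation of interferon signalling by the progesterone receptor, and this contrast sets the receptor-positive line against the receptor-low one without its ligand.

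As background, type I interferons bind the receptor chains IFNAR1 and IFNAR2, which activate the kinases JAK1 and TYK2. These phosphorylate STAT transcription factors, which join IRF9 to form a complex (ISGF3) that binds the interferon-stimulated response element (ISRE) in promoters of interferon-stimulated genes. Their products sense viral RNA, block translation and viral entry, degrade RNA, and attach the ubiquitin-like protein ISG15 to other proteins. Epithelial cells, breast cancer lines included, carry this pathway and can express the same genes at a low level without added interferon.

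Promoters of 4 genes are shown because these genes represent some of the patterns described below. ISG15 and IFI6 started higher in T47D-co and had no called end difference, IFI27 had no called start difference and ended lower in T47D-co, and B2M started higher and ended lower. No promoter is shown for the patterns higher at both start and end or lower at both in T47D-co. Each sequence is the 170 bases before the annotated transcription start, read 5′ to 3′ on the gene's strand, from RefSeq (GRCh38.p14). Capitals mark matches to GAAANNGAAA, the core of the ISRE, on either strand, and overlapping matches run together.
ISG15 (chr1:1013327-1013496, plus strand): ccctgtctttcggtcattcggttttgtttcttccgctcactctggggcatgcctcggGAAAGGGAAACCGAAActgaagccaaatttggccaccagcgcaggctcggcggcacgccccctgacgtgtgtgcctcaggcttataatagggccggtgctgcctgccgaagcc
IFI6 (chr1:27672193-27672362, minus strand): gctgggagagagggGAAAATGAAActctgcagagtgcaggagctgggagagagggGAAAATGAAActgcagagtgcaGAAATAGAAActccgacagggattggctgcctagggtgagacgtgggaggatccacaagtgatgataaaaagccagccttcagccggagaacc
IFI27 (chr14:94110566-94110735, plus strand): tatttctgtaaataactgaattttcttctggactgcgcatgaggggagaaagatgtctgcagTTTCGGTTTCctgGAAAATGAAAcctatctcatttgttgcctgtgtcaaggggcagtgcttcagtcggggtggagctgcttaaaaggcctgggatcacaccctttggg
B2M (chr15:44711347-44711516, plus strand): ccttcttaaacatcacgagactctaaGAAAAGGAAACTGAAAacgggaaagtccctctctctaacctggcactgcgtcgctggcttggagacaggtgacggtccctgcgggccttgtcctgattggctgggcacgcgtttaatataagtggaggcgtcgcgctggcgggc
In a search of the 250 bases before each start, ISG15, IFI27 and B2M each held 2 matches and IFI6 held 3. In the deposited table, whose coordinates are hg19, the loci are chr1:948802-949920 for ISG15, chr1:27992571-27998729 for IFI6, chr14:94571181-94583033 for IFI27 and chr15:45003674-45011075 for B2M, and only IFI6 of the 4 shares its locus with another entry. Of 24 interferon-list genes with a called negative interaction and a promoter in the table, 14 (58.3%) held a match in at least 1 promoter. Of 27305 gene symbols with a promoter, 1014 (3.71%) did. Among the other genes called, a match was found for 1 of 20 with a negative and 1 of 6 with a positive interaction. The share among interferon-list genes without a called interaction was not counted, so these shares do not tie the motif to the interaction. A match is a stretch of letters and not a measured binding site.

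Levels are given in scaled fragments: the deposited values with the authors' scaling undone and all libraries put on 1 scale by median-of-ratios factors. The 12 libraries held 14141207 to 25571085 estimated fragments, and replicates of a group correlated at 0.983 to 0.987 across genes, which are not independent replicates. PGR, the progesterone receptor gene, had 26820, 24900 and 26170 scaled fragments in T47D-co with IFN and 27960, 26310 and 25170 with water, against 642, 651 and 676 in T47D-Y with IFN and 709, 649.6 and 719 with water. Thus T47D-Y held low PGR rather than none, 2.62% of the T47D-co mean with water, and the PGR interaction was 0.05 ± 0.07 (limma, Benjamini-Hochberg adjusted p = 0.933). The epithelial markers measured were high in every library, with EPCAM at 1440 to 2090 and KRT8 at 13300 to 30900 scaled fragments. Of 14 markers of other cell types in the table, 4 stayed below 10 scaled fragments in all 12 libraries and 0 were at 0 throughout. Their sum lay at 34200 to 37800 in T47D-co with IFN and 35400 to 35700 in T47D-co with water, against 295 to 393 in T47D-Y with IFN and 313 to 325 in T47D-Y with water. ALB reached 37200 in T47D-co, and the part of these markers in the results was not tested. The merged mitochondrial entry MT-ATP6 was listed at 0 in T47D-co water replicate 2 and T47D-Y water replicate 1, and the other mitochondrial entries there were not low: over all 6 libraries of a line they held 0.976 to 1.12% of fragments in T47D-co and 0.804 to 0.971% in T47D-Y. Results are also given without these 2 libraries.

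An interaction of line and IFN was called for 76 of 20162 genes, 0.377% (limma over all 24 libraries, two-sided, Benjamini-Hochberg adjusted p under 0.05). It was negative for 63 (0.312%) and positive for 13 (0.0645%), while 1554 genes had an unadjusted p under 0.05. Of the 63 negative ones, 33 belong to the interferon lists (receptor and signalling genes, sensors, effectors, ISG15 conjugation and others), and 0 of the 13 positive ones do. These lists hold few of the 20162 genes tested: 74 interferon-stimulated genes, 18 of receptor and signalling, 16 brakes and 12 of antigen processing and presentation. The 0 of 13 is near so small a share and is not read as a result. Within a line, IFN changed 202 genes in T47D-co (1%), 115 higher (0.57%) and 87 lower (0.432%), and 896 in T47D-Y (4.44%), 506 higher (2.51%) and 390 lower (1.93%), the total being 574 without T47D-Y water replicate 2. The lines differed at 12732 genes with water (63.1%; 29.7% higher and 33.4% lower in T47D-co) and 12627 with IFN (62.6%; 29.6% higher and 33% lower), so a called start or end difference is common for any gene. Of the 63 genes with a negative interaction, 36 were called higher with IFN in both lines and 17 in T47D-Y alone. Another 6 were called lower in T47D-co alone, and the remaining 4 were CYP1B1 (lower in both), SIPA1L2 (lower in T47D-co and higher in T47D-Y), MAST4 and NAMPT (called in neither). In bulk RNA a lower share of responding cells and less RNA per cell cannot be told apart.

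Without the 2 libraries with MT-ATP6 listed at 0, 53 genes were called, 11 positive and 42 negative, and 24 of the 33 interferon-list genes were among them. The 9 that missed the threshold kept a negative sign, among them IFIT1 (-1.93), IFITM3 (-2.33), IFIT2 (-1.49), OASL (-1.55), OAS2 (-1.63), LGALS3BP (-0.67), SLFN5 (-0.50) and STAT2 (-0.29). When each of the 12 libraries was left out in turn, 47 of the 76 calls held in all 12 fits: 28 of the 33 interferon-list genes, 15 of the other 30 negative genes and 4 of the 13 positive ones. On the authors' own scale, set separately for each line and IFN state, the median interaction of all genes moved to 0.289. There 27 of the 33 interferon-list genes still had a called negative interaction, while STAT2, TRIM25 and SLFN5 were among those that missed the threshold and ADAR and ZNFX1 turned positive.

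**Figure D1:**
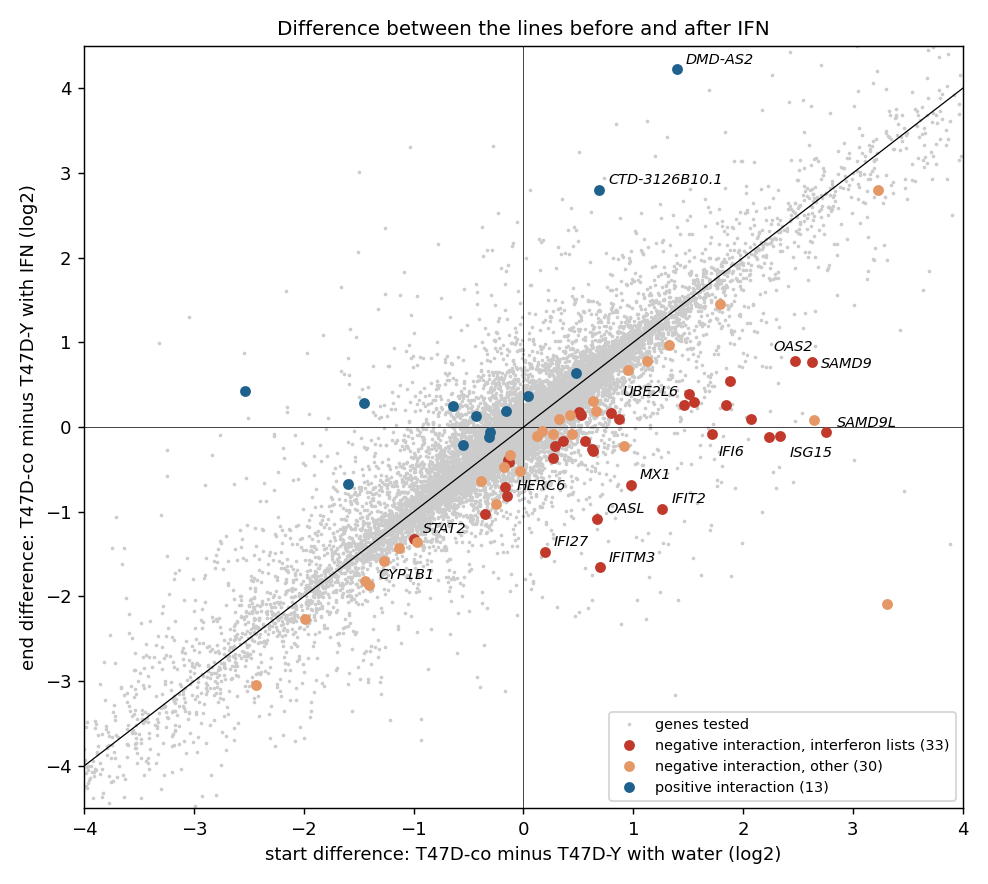
End difference (T47D-co minus T47D-Y with IFN, log2) against start difference (T47D-co minus T47D-Y with water, log2), 1 point per gene. Grey points are the genes tested, of which 409 lie outside the plotted range; red, orange and blue points are the 33, 30 and 13 genes with a called interaction, of which 2 lie outside, and the diagonal is an interaction of 0. ISG15, IFI6 and SAMD9L sit far to the right near the horizontal line, while IFI27 and HERC6 sit near the vertical line and below 0.

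Among the 33 interferon-list genes, the start difference was larger in size than the end difference for 23. These genes were picked by their negative interaction, which favours a higher start or a lower end in T47D-co, so the counts here are a description. The start difference was called higher in T47D-co for 25, lower for 5 and not called for 3. The end difference was called higher in T47D-co for 9, lower for 15 and not called for 9. Median log2 values over the 33 were 1.28 for IFN in T47D-co and 2.14 for IFN in T47D-Y, with 0.69 for the start and -0.16 for the end difference. Over 74 interferon-stimulated genes of the lists, called or not, the median start difference was 0.271 and the median end difference -0.327. Over all genes tested, the median interaction was -0.00629.

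The first pattern, a higher start and no called end difference, held 9 genes: ISG15, IFI6, IFIT1, DDX60, DDX60L, SAMD9L, IRF7, IFIH1 and SLFN5. ISG15, the ubiquitin-like modifier, had 473, 545 and 547 scaled fragments in T47D-co with IFN and 72.2, 59.95 and 64.5 with water, against 525, 597 and 554 in T47D-Y with IFN and 9.92, 13.98 and 12.8 with water. The water libraries of the lines stood apart by a wide margin, and the IFN libraries overlapped. Its interaction was -2.44 ± 0.21 (limma, Benjamini-Hochberg adjusted p = 1.23e-07), made of a start difference of 2.34 ± 0.15 and an end difference of -0.10 ± 0.15, whose 95% interval ran from -0.41 to 0.21. IFI6, an interferon-induced membrane protein, had 3369, 3522 and 3180 scaled fragments in T47D-co with IFN and 300.3, 295 and 301 with water, against 3433, 3666 and 3559 in T47D-Y with IFN and 87.1, 81.9 and 103 with water. Again only the water libraries were separate. The IFI6 interaction was -1.80 ± 0.13 (limma, Benjamini-Hochberg adjusted p = 2.74e-09), with a start difference of 1.71 ± 0.09 and an end difference of -0.08 ± 0.09.

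DDX60, a helicase of the antiviral response, followed the same course with 619.9, 587 and 745 scaled fragments in T47D-co with IFN and 98.2, 108 and 106 with water, against 588, 558 and 679 in T47D-Y with IFN and 23.96, 22.6 and 25.5 with water. Its start difference was 2.07 ± 0.12 and its end difference 0.09 ± 0.12, for an interaction of -1.98 ± 0.17. SAMD9L, an inhibitor of translation and growth, showed the largest negative interaction of the 33, -2.82 ± 0.47 (limma, Benjamini-Hochberg adjusted p = 0.00211). Its level was 44.1, 59.9 and 96.05 scaled fragments in T47D-co with IFN and 22.1, 19.3 and 21.9 with water, against 67.9, 69.4 and 61.9 in T47D-Y with IFN and 1.65, 3.23 and 2.13 with water. At so few fragments the added 1 compresses the T47D-Y change, and the T47D-co IFN libraries spread widely around the T47D-Y ones. IFIT1, which binds viral RNA ends and blocks their translation, had 887, 818 and 947 in T47D-co with IFN and 117, 155 and 103 with water, against 775, 1074 and 1067 in T47D-Y with IFN and 17.5, 27.9 and 33.6 with water. IRF7, the transcription factor that amplifies interferon production, had an interaction of -0.78 ± 0.14, and IFIH1, the sensor MDA5, of -0.72. The SLFN5 call (-0.52) held in 3 of the 12 single-library omissions (T47D-co water replicate 1, T47D-Y IFN replicate 2 or T47D-Y water replicate 3), with values between -0.59 and -0.45 over the 12.

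**Figure D2:**
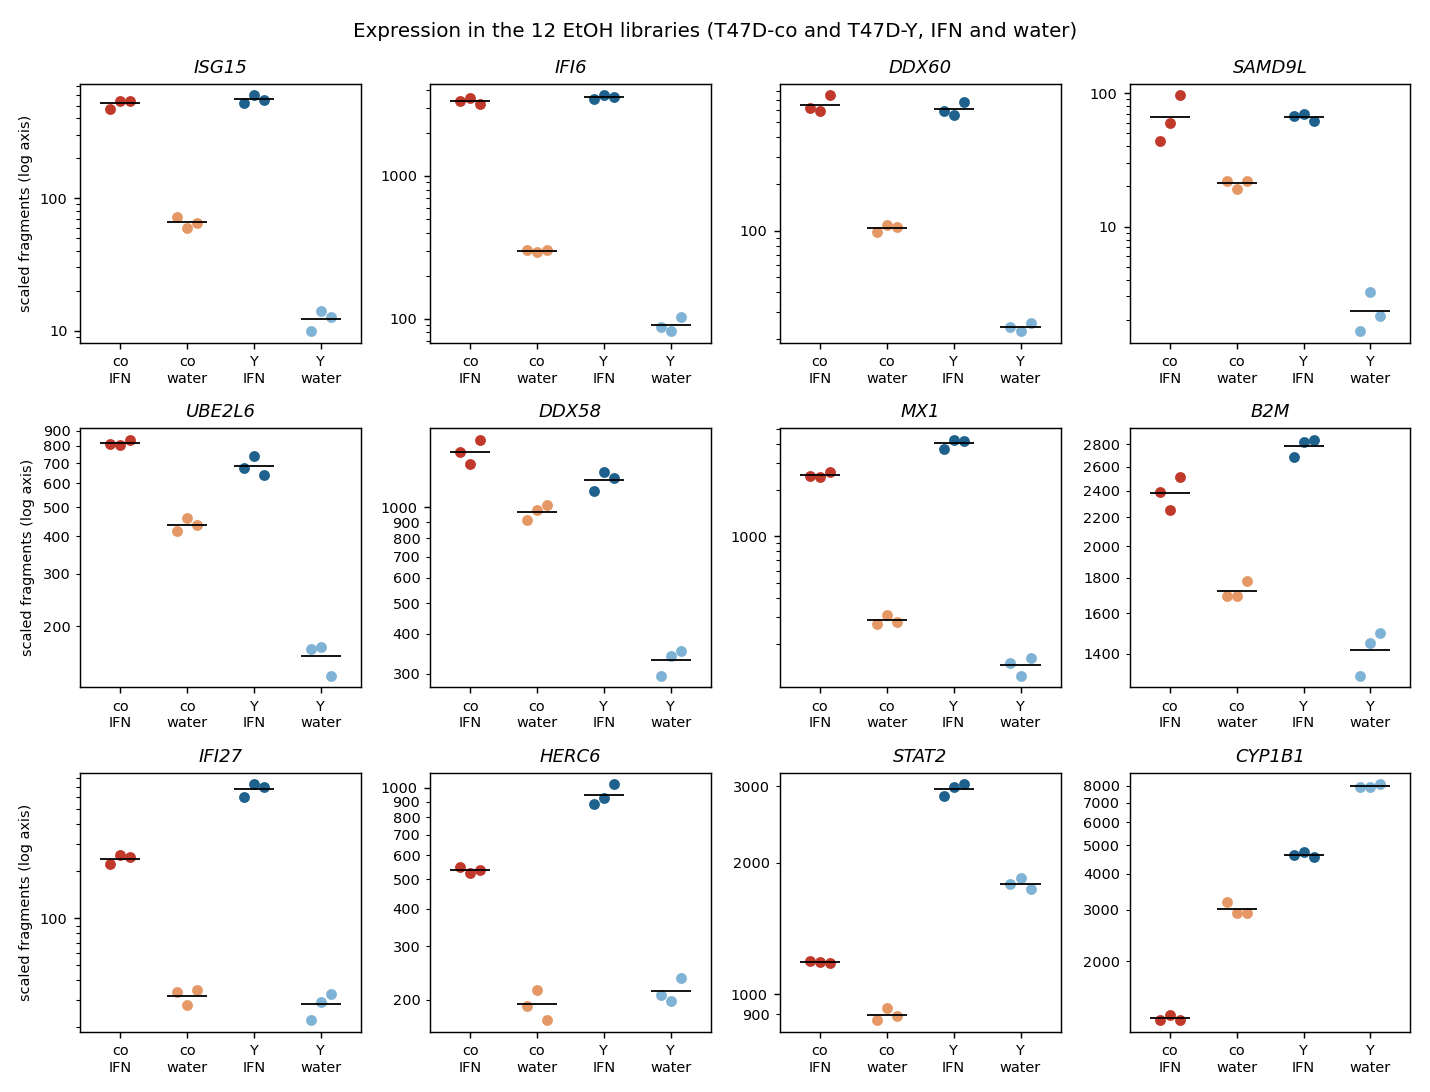
Scaled fragments (log axis) of 12 genes in each of the 12 EtOH libraries, 1 point per library and a bar at each group mean, in the order T47D-co IFN, T47D-co water, T47D-Y IFN, T47D-Y water. The top row (ISG15, IFI6, DDX60, SAMD9L) shows water groups apart and IFN groups overlapping; IFI27 and HERC6 show the reverse, IFN groups apart and water groups overlapping.

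In the second pattern, 9 genes were higher in T47D-co at the start and remained so at the end by a smaller margin, among them UBE2L6, OAS2, IFI35, DHX58, TRIM25, BST2, SAMD9 and DDX58. UBE2L6, the conjugating enzyme for ISG15, had 813, 804 and 838 scaled fragments in T47D-co with IFN and 415, 459.6 and 436 with water, against 678, 739.5 and 642 in T47D-Y with IFN and 169, 171 and 137 with water. T47D-co was above T47D-Y in every library of either state, and the interaction was -1.20 ± 0.12 (limma, Benjamini-Hochberg adjusted p = 1.37e-06). DDX58, the gene of the RNA sensor RIG-I, had 1500, 1367 and 1632 scaled fragments in T47D-co with IFN and 910.4, 983 and 1017 with water, against 1126, 1295 and 1240 in T47D-Y with IFN and 296, 341 and 354 with water. Its T47D-co libraries with water lay closer to the T47D-Y libraries with IFN than to those with water, and its interaction was -1.26 ± 0.11. OAS2, which makes the activator of RNase L, had 1039, 1015 and 1259 scaled fragments in T47D-co with IFN and 138, 145 and 116 with water, against 538, 684 and 719 in T47D-Y with IFN and 23.3, 24.6 and 21.6 with water. It shares its locus with OAS1 and OAS3, and the summed locus had an end difference of -0.25, lower in T47D-co. BST2, the tetherin that holds budding viruses at the cell surface, had the tightest estimate of these, -0.63 ± 0.05, with a start difference of 0.80 ± 0.03 and an end difference of 0.17 ± 0.03. The DHX58 call (-1.12) was lost without T47D-co IFN replicate 1 or 2, T47D-co water replicate 2, T47D-Y IFN replicate 2 or 3 or T47D-Y water replicate 2, and lay between -1.27 and -0.97 over all 12 fits.

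The third pattern was a crossing, higher in T47D-co with water and lower in T47D-co with IFN, and held 7 genes: IFIT2, OAS3, OASL, B2M, PML, HELZ2 and MX1. MX1, a GTPase that blocks viral replication, had 2458, 2444 and 2630 scaled fragments in T47D-co with IFN and 272, 310.3 and 279 with water, against 3664, 4228 and 4187 in T47D-Y with IFN and 150.2, 125 and 163 with water. The lines were separate in either state and in opposite order, with a start difference of 0.98 ± 0.14, an end difference of -0.68 ± 0.14 and an interaction of -1.66 ± 0.19 (limma, Benjamini-Hochberg adjusted p = 1.47e-05). B2M, the small invariant subunit of MHC class I, crossed at a smaller scale, with 2395, 2254 and 2510 scaled fragments in T47D-co with IFN and 1693, 1695 and 1782 with water, against 2687, 2822 and 2841 in T47D-Y with IFN and 1303, 1452 and 1501 with water. Its start difference was 0.28 ± 0.05, its end difference -0.22 ± 0.05 and its interaction -0.51 ± 0.07 (limma, Benjamini-Hochberg adjusted p = 0.000132). OAS3 crossed likewise at -0.89 ± 0.08, PML, the organizer of nuclear bodies, at -0.63 ± 0.09, and HELZ2, a helicase-domain coactivator, at -0.92 ± 0.12. OASL (-1.75) lost its call without T47D-co IFN replicate 1, T47D-co water replicate 3 or T47D-Y water replicate 1, and IFIT2 (-2.23) without T47D-co IFN replicate 1 or 2, T47D-co water replicate 2 or 3 or T47D-Y IFN replicate 2 or 3. Over all 12 fits OASL stayed between -1.95 and -1.58 and IFIT2 between -2.59 and -1.64.

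In a further set, 3 genes (IFI27, IFITM3 and HERC6) showed no called start difference and a lower end in T47D-co. IFI27, an interferon-induced protein of the mitochondrial and nuclear membranes, had 223, 254 and 248 scaled fragments in T47D-co with IFN and 33.7, 27.8 and 34.6 with water, against 602, 722 and 695 in T47D-Y with IFN and 22.3, 29.04 and 32.97 with water. The water libraries overlapped and the IFN libraries did not. The interaction was -1.67 ± 0.30 (limma, Benjamini-Hochberg adjusted p = 0.00618), with a start difference of 0.19 ± 0.22 and an end difference of -1.47 ± 0.22. HERC6, a HECT-domain ligase that in mice attaches ISG15, had 547, 526 and 537 scaled fragments in T47D-co with IFN and 192, 216 and 172 with water, against 881, 927 and 1026 in T47D-Y with IFN and 207, 198 and 236 with water, for an interaction of -0.66 ± 0.12. IFITM3, which blocks viral entry, had 21.8, 21.3 and 39.8 scaled fragments in T47D-co with IFN and 14.8, 12.9 and 8.08 with water, against 79.6, 89.8 and 87.7 in T47D-Y with IFN and 7.34, 7.36 and 5.74 with water, with an interaction of -2.35 ± 0.45. Its start difference of 0.69 ± 0.32 narrowly missed the threshold (limma, Benjamini-Hochberg adjusted p = 0.0618), and its water libraries did not overlap. The end difference of IFITM3 was -1.66 ± 0.32. IFITM3 is a merged entry at a shared locus, and the summed locus had a start difference of 1.315 and an end difference of -1.068. Its place in this set is therefore uncertain.

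In the last set, 5 genes were lower in T47D-co at the start and lower still at the end: STAT2, ADAR, LGALS3BP, EIF2AK2 and ZNFX1. STAT2, a subunit of ISGF3, had 1190, 1186 and 1180 scaled fragments in T47D-co with IFN and 873, 931 and 892 with water, against 2852, 2990 and 3028 in T47D-Y with IFN and 1791, 1852 and 1740 with water. The T47D-co IFN libraries lay below the T47D-Y water libraries, so the IFN-treated T47D-co cultures held less STAT2 RNA than untreated T47D-Y. Its start difference was -0.997 ± 0.04, its end difference -1.32 ± 0.04 and its interaction -0.32 ± 0.06 (limma, Benjamini-Hochberg adjusted p = 0.00829). EIF2AK2, the RNA-activated kinase PKR, had an interaction of -0.54 ± 0.09, ADAR, which edits adenosine in double-stranded RNA, of -0.25 ± 0.04, and ZNFX1 of -0.28 ± 0.04. LGALS3BP, a secreted glycoprotein, had -0.68, between -0.75 and -0.60 with a library left out, and its call was lost without T47D-co IFN replicate 1 or T47D-co water replicate 3.

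**Figure D3:**
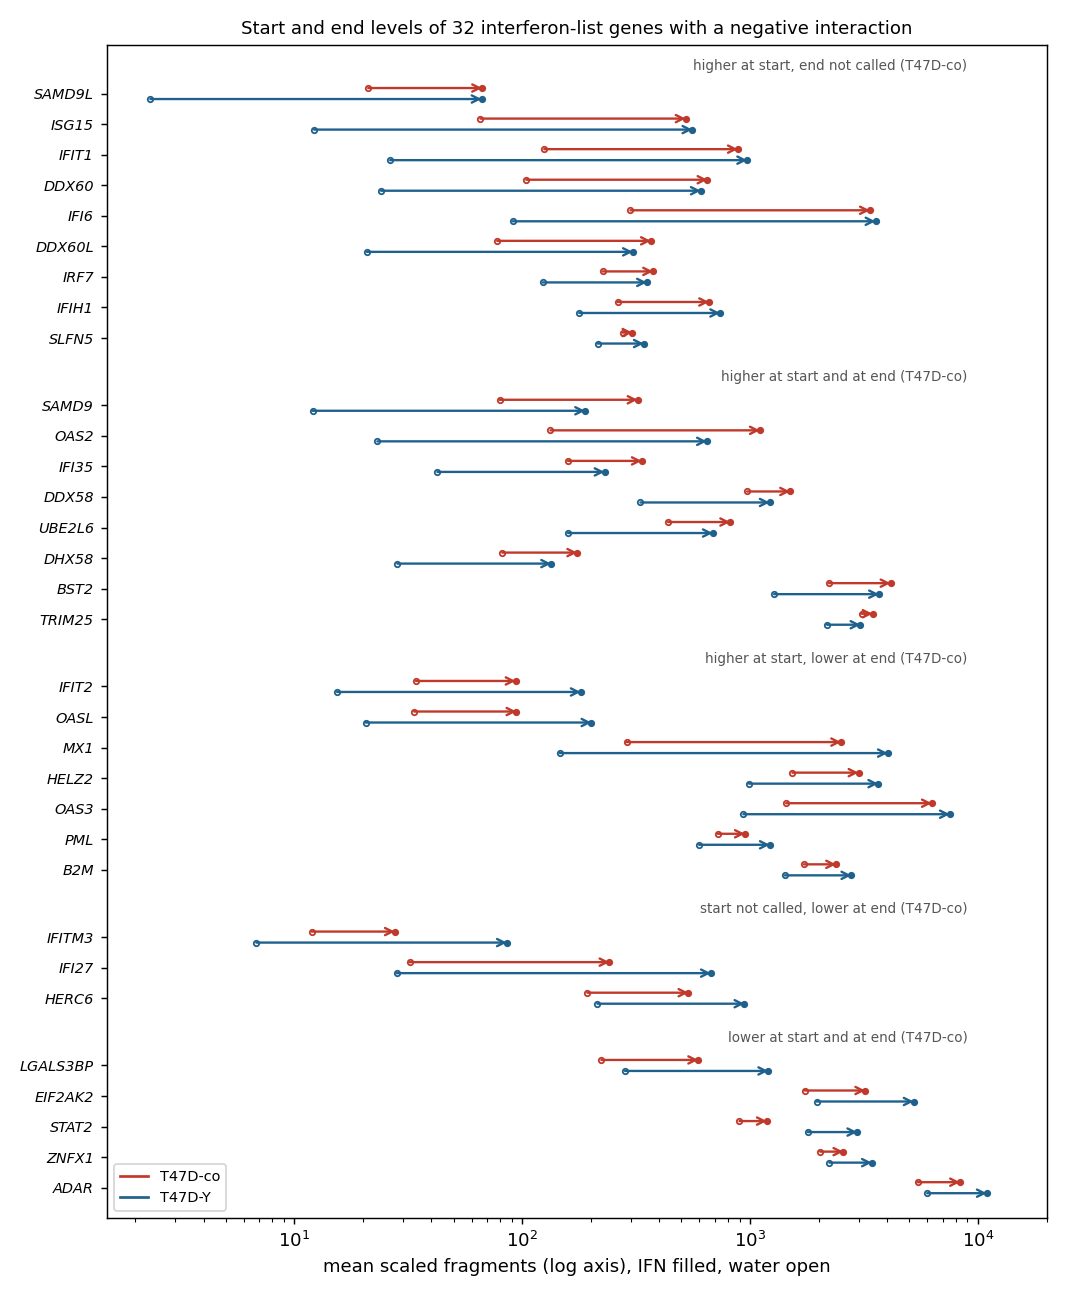
Mean scaled fragments (log axis) of 32 of the 33 interferon-list genes with a called negative interaction, with an arrow per line that ends at the IFN mean (filled) and begins at the water mean (open), T47D-co in red above T47D-Y in blue. Genes are grouped by the 5 start and end patterns; in the top group the arrowheads of the lines lie close together, and for IFI27 and HERC6 the open points do.

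On the scale of fragments gained, a description chosen after these values were seen, T47D-co gained less than T47D-Y for most of the 33 genes. All were picked by a negative interaction in these libraries, which favours a smaller gain in T47D-co, so the counts below are a description. ISG15 gained 456 ± 24.5 in T47D-co and 546.4 ± 21.1 in T47D-Y with IFN (mean difference ± SE). The gain was smaller in T47D-co for 30 of the 33 genes, by more than 2 SE for 24. It was larger in T47D-co for SAMD9, OAS2 and DDX60L, by more than 2 SE for SAMD9 (241.5 ± 22.1 in T47D-co against 176.9 ± 14.9 in T47D-Y) and OAS2 (971.2 ± 78.1 in T47D-co against 623.9 ± 55.4 in T47D-Y). For SAMD9 and OAS2, then, the log2 interaction was negative while T47D-co gained more fragments. OAS2 shares its locus with OAS1 and OAS3, between which fragments were divided, so its own gain is uncertain. The sum over OAS1, OAS2 and OAS3 rose from a mean of 1606 with water to 7653 with IFN in T47D-co. In T47D-Y that sum rose from 988 to 9120, so the summed gain was smaller in T47D-co. At the other end, IFI27 gained 209.6 ± 9.83 in T47D-co, against 644.9 ± 36.6 in T47D-Y, and STAT2 gained 286.9 ± 17.3 in T47D-co and 1162 ± 62.5 in T47D-Y.

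By role, no receptor chain or kinase measured was called. Of 18 measured genes of the interferon receptor and signalling, 3 had a called negative interaction (IRF7 and STAT2 among them) and 0 a positive one, with a list median of -0.0812. The receptor chain IFNAR1 had 1256, 1221 and 1349 scaled fragments in T47D-co with IFN and 1310, 1220 and 1257 with water, against 1699, 1486 and 1598 in T47D-Y with IFN and 1434, 1533 and 1505 with water. Its interaction was -0.08 ± 0.07 (95% interval -0.22 to 0.06), and T47D-co was lower in either state, with a start difference of -0.24 ± 0.05 and an end difference of -0.32 ± 0.05. JAK1 had an interaction of -0.01 (95% interval -0.10 to 0.08) and TYK2 of -0.01 (95% interval -0.23 to 0.21). IRF1, a further interferon-induced transcription factor, had -0.22 ± 0.19.

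Of 16 brakes on interferon signalling, 0 were called, near the share of 0.377% over all genes tested, and the list median was -0.0533. USP18, which removes ISG15 and blocks the receptor, had 121, 132 and 133 scaled fragments in T47D-co with IFN and 58.7, 75.7 and 47.2 with water, against 145, 197 and 184 in T47D-Y with IFN and 58.7, 50.5 and 67.01 with water. Its groups overlapped with water, and its interaction of -0.46 ± 0.24 did not pass (limma, Benjamini-Hochberg adjusted p = 0.686). SOCS1, the suppressor of JAK kinases, was low and lower in T47D-co, with 6.32, 7.82 and 8.096 scaled fragments in T47D-co with IFN and 2.78, 5.63 and 4.46 with water, against 47.7, 46.2 and 37.4 in T47D-Y with IFN and 23.4, 26.4 and 37.5 with water. Its interaction was 0.11 ± 0.50, a value too wide to give a direction.

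Sensors and antiviral effectors held most of the 33 interferon-list genes called. Among 18 nucleic acid sensors and helicases, 12 had a called negative interaction, 17 a negative sign, and the median was -0.902. The antiviral effectors had 14 called of 42, with 36 of negative sign and a median of -0.556. For ISG15 and its conjugation the count was 4 of 8, with all 8 negative in sign and a median of -0.663. The 5 members of the PARP family with DTX3L had 0 called here, all 5 negative in sign and a median of -0.394. Of 3 guanylate-binding proteins 0 were called, with a median of -1.22. Pooling the lists of interferon-stimulated genes, 74 were tested, 29 had a called negative interaction, 0 a positive one, and 66 were negative in sign. Over these 74 genes the median log2 value was 1.05 for IFN in T47D-co and 1.88 for IFN in T47D-Y, with 0.271 for the start and -0.327 for the end difference. The start difference was called higher in T47D-co for 34 and lower for 16, and the end difference higher for 15 and lower for 40. Of all 85 genes that IFN raised at least 2-fold with a call in T47D-Y, 29 had a called negative and 0 a called positive interaction. Since these 85 were picked by their T47D-Y change, which enters the interaction, that count is a description.

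Few members of the remaining lists were called. The share called over all genes tested was 0.377%, so 0 called in a list of this size is near that share. Such a count is not read as a result about the list. Of 12 antigen processing and presentation genes, a list counted among the interferon lists, 1 was called (B2M), and the list median was -0.051. Chemokines and immune ligands had 0 of 12 called, cell death and growth arrest 0 of 23, and progestin and glucocorticoid response genes 0 of 24. The count was 0 of 11 for basal and mesenchymal genes, 0 of 28 for the cell cycle, 0 of 9 for markers of other cell types and 0 of 7 for epithelial markers. TNFSF10, the death ligand TRAIL, had 266, 225 and 238 scaled fragments in T47D-co with IFN and 199, 209 and 186 with water, against 95.7, 100.2 and 94.9 in T47D-Y with IFN and 60.5, 46.3 and 43.7 with water. T47D-co stayed above T47D-Y in every library, and the interaction of -0.66 ± 0.20 did not pass (limma, Benjamini-Hochberg adjusted p = 0.233). CXCL10, a chemokine for T cells, had 14.2, 8.15 and 5.92 scaled fragments in T47D-co with IFN and 5.74, 6.401 and 1.13 with water, against 60.8, 47.7 and 65.7 in T47D-Y with IFN and 23.9, 25.8 and 28.7 with water, and an interaction of -0.05 ± 0.71. Of 22 oestrogen response and luminal genes, 1 was called: CA12, a carbonic anhydrase induced by oestrogen, at -0.34 ± 0.04.

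Several entries share a locus, within which the authors' software divided fragments between genes, and 40 of the 76 called entries lie at shared loci. The summed locus was called in the same direction for 26 of the 40, and for 9 of the 12 interferon-list genes among them. It was not called for DDX60L, at -0.10 against -1.59 singly (limma, Benjamini-Hochberg adjusted p = 0.62), or for ZNFX1, at -0.036 against -0.28 singly. IFITM3, HELZ2, EIF4B, EIF2S3 and FAM19A2 are entries deposited under names merged with those of other genes. IFIT1, IFIT2 and IFIT3 share 1 locus with LIPA, and the summed locus had an interaction of -0.40. A sum over IFIT1, IFIT2 and IFIT3 alone, chosen after the data were seen and not tested, gave -2.12. IFIT3 taken singly had 92.4, 68.7 and 115 scaled fragments in T47D-co with IFN and 18.3, 30.1 and 28.3 with water, against 168, 272 and 270.3 in T47D-Y with IFN and 9.55, 18.7 and 16.01 with water, for -2.12 ± 0.57 (limma, Benjamini-Hochberg adjusted p = 0.132). Likewise OAS1, OAS2 and OAS3 share a locus whose sum gave -0.95, and OAS1 singly had 249.5, 229 and 330.1 scaled fragments in T47D-co with IFN and 20.5, 40.2 and 38.2 with water, against 877, 999 and 948 in T47D-Y with IFN and 26.9, 25.1 and 38.6 with water. OAS1 missed the threshold at -1.90 ± 0.44 (limma, Benjamini-Hochberg adjusted p = 0.0611). It was called without T47D-co IFN replicate 3, T47D-co water replicate 1 or T47D-Y water replicate 3, between -2.21 and -1.74 over the 12 fits. A merged entry of IFITM1 and IFITM2 had 883, 899 and 902 scaled fragments in T47D-co with IFN and 155, 166 and 207 with water, against 769.7, 882 and 888 in T47D-Y with IFN and 31.5, 26.9 and 23.4 with water. It followed the first pattern, with a start difference of 2.64 ± 0.12 and an end difference of 0.08 ± 0.12.

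The remaining 30 genes with a negative interaction belong to no interferon list, although some are interferon-induced too. Among these are SAMHD1, which depletes the nucleotides viruses need, and the merged IFITM1 and IFITM2 entry. Both of these, with RNF213, CNP and H1F0, were called higher with IFN in both lines. SAMHD1 had 1697, 1425 and 1602 scaled fragments in T47D-co with IFN and 774, 754 and 805 with water, against 1724, 1872 and 1900 in T47D-Y with IFN and 394, 449 and 397 with water, an interaction of -1.13 ± 0.08 (limma, Benjamini-Hochberg adjusted p = 2.74e-09). By pattern, 13 of the 30 were lower in T47D-co at both start and end, 9 higher at both, 4 higher at the start with no called end difference, 3 higher at the start and lower at the end, and 1 (MTMR11) was lower at the end alone. The median interaction of the 30 was -0.359. Among the genes lower in T47D-co throughout, TNN, the matrix protein tenascin-N, had 7.72, 8.17 and 9.49 scaled fragments in T47D-co with IFN and 17.3, 12.1 and 18.4 with water, against 1213, 1130 and 1104 in T47D-Y with IFN and 897, 916 and 888 with water. TNN was called lower with IFN in T47D-co and had no called change in T47D-Y, for an interaction of -1.18 ± 0.18. Even so, every T47D-Y library with IFN was above every one with water, a gain of 248.4 ± 33.9 scaled fragments (mean difference ± SE). Its T47D-co libraries held few fragments, and the interaction was not called with voom weights. SIPA1L2, a regulator of Rap GTPases, fell in T47D-co and rose in T47D-Y, for -0.61 ± 0.07. The histone gene H1F0 rose with IFN by 0.22 ± 0.04 in T47D-co, against 0.70 ± 0.04 in T47D-Y, an interaction of -0.48 ± 0.05.

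The aryl hydrocarbon receptor (AhR) pathway, which senses planar aromatic ligands and induces cytochromes P450, had 2 called of 8 measured, CYP1B1 and AHR. The CYP1B1 entry is deposited under a name merged with RMDN2-AS1 and shares its locus with CYP1B1-AS1 and RMDN2, and the summed locus gave -0.42. It had 1256, 1309 and 1257 scaled fragments in T47D-co with IFN and 3189, 2928 and 2931 with water, against 4622, 4741 and 4546 in T47D-Y with IFN and 7919, 7949 and 8096 with water. IFN lowered it in both lines, more so in T47D-co, and the 4 groups did not overlap. Its interaction was -0.46 ± 0.05 (limma, Benjamini-Hochberg adjusted p = 2.06e-06), with a start difference of -1.41 ± 0.03 and an end difference of -1.86 ± 0.03. CYP1A1, the other classical target, had 31.99, 33.6 and 26.1 scaled fragments in T47D-co with IFN and 142, 141 and 136 with water, against 143, 179 and 138 in T47D-Y with IFN and 597, 590.4 and 579.7 with water. IFN lowered it in both lines, with a change of -2.16 ± 0.12 in T47D-co against -1.95 ± 0.12 in T47D-Y, and its interaction of -0.22 ± 0.16 did not pass (95% interval -0.55 to 0.12). AHR, the receptor itself, had -0.25 (0.049 on the deposited scale), between -0.28 and -0.22 with a library left out, and its call held in 3 of those 12 fits (without T47D-co water replicate 2, T47D-Y IFN replicate 1 or T47D-Y water replicate 3).

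The 13 positive interactions came mainly from a fall with IFN in T47D-Y: 9 were called lower there and not called in T47D-co, and EIF4B and LINC00657 were lower in both lines. RPLP0, a protein of the ribosomal stalk, had 4190, 4305 and 3896 scaled fragments in T47D-co with IFN and 4393, 4592 and 4241 with water, against 4952, 4849 and 4496 in T47D-Y with IFN and 6336, 6550 and 6463 with water. In T47D-Y the IFN libraries lay below the water libraries, while in T47D-co the ranges overlapped, and the interaction was 0.34 ± 0.05 (limma, Benjamini-Hochberg adjusted p = 0.00102). CIRBP, the cold-inducible RNA-binding protein, had 1683, 1692 and 1631 scaled fragments in T47D-co with IFN and 1732, 1733 and 1706 with water, against 1486, 1458 and 1459 in T47D-Y with IFN and 1953, 1964 and 1849 with water. T47D-co lay below T47D-Y with water and above it with IFN, for an interaction of 0.34 ± 0.06. EIF4B and EIF2S3, factors of translation initiation, had 0.25 ± 0.04 and 0.20 ± 0.04. CIRBP, RPLP0, EIF4B and FAM19A2 kept their calls whichever library was left out, and the other 9 did so in 1 to 8 of the 12 fits. The larger positive values belong to low or divided entries: DMD-AS2 (2.83 ± 0.60) and CTD-3126B10.1 (2.11 ± 0.47) share loci with DMD and PDPK1. The summed loci gave -0.04 for DMD-AS2, 0.046 for CTD-3126B10.1, 0.096 for RPL10AP6 (0.56 singly) and 0.069 for FAM19A2 (0.33 singly). Of the 9 positive entries at shared loci, 2 had a summed locus called positive.

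The libraries given R5020 repeat the contrast in separate cultures, with 176 genes called (0.873%), 98 negative (0.486%) and 78 positive (0.387%). All 33 interferon-list genes had a negative interaction there as well, and 32 were called, the exception being IFITM3 at -1.29 ± 0.45 (limma, Benjamini-Hochberg adjusted p = 0.219). The median over the 33 was -1.29 with R5020 and -1.12 with EtOH. Of the other 30 genes with a negative interaction 22 kept the sign and 9 were called, and of the 13 with a positive one all 13 kept the sign and 2 were called, EIF4B and EIF2S3. The start and end parts, set side by side without a test, were as follows. With R5020 the median start difference of the 33 was 0.41 and the median end difference -0.70, against 0.69 and -0.16 with EtOH. The end difference was below 0 for 31 of the 33 with R5020 and 21 with EtOH. ISG15, for instance, had a start difference of 1.48 and an end difference of -0.52 with R5020, and IFI6 had 1.33 and -0.60. All 5 genes of the PARP list were called negative with R5020, against 0 with EtOH, but the difference between the interactions passed for none of them.

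**Figure D4:**
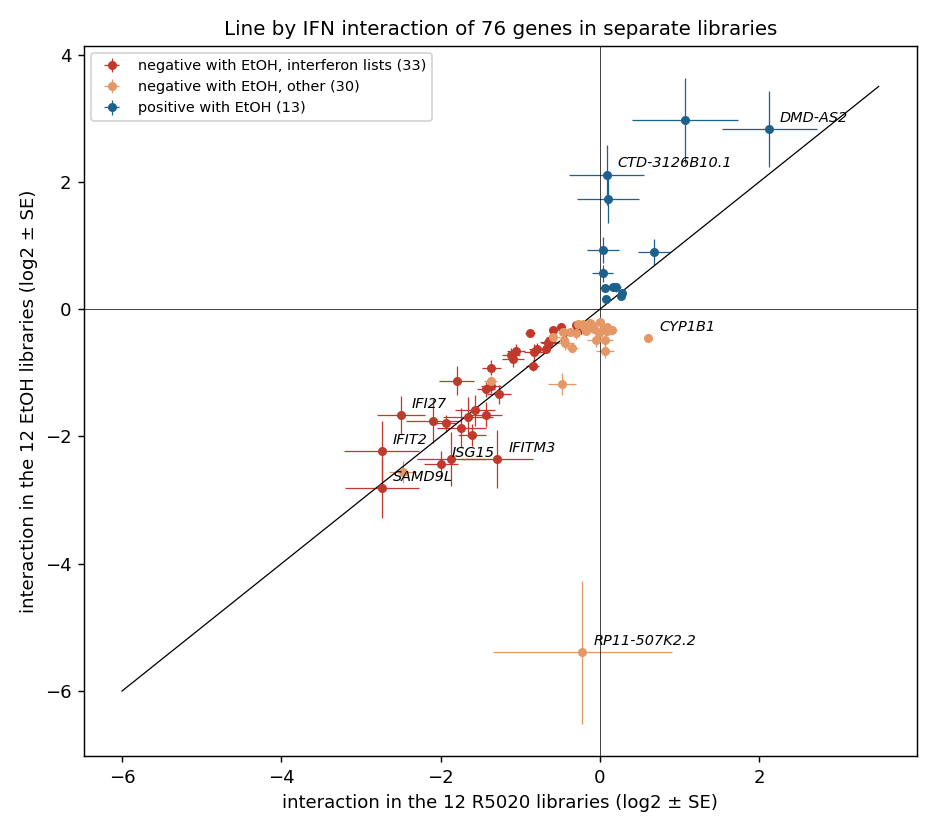
Interaction of line and IFN (log2 ± SE) in the 12 EtOH libraries against the same in the 12 R5020 libraries, for the 76 genes called with EtOH, with the diagonal of equal values. Interferon-list genes (red) lie along the diagonal; CYP1B1 lies on the other side of 0 with R5020, and most positive genes (blue) lie near 0 there.

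A test of the difference between the R5020 and EtOH interactions called 12 genes (0.0595%), 9 positive (0.0446%) and 3 negative (0.0149%). CYP1B1 changed sign, at 0.61 ± 0.05 with R5020 against -0.46 ± 0.05 with EtOH, a difference of 1.07 ± 0.07 (limma, Benjamini-Hochberg adjusted p = 6.15e-10). With R5020 it had 4055, 4143 and 4020 scaled fragments in T47D-co with IFN and 5273, 5145 and 5016 with water, against 4445, 4577 and 4541 in T47D-Y with IFN and 8501, 8540 and 9105 with water. The CYP1B1 fall with IFN was thus the shallower one in T47D-co when R5020 was present. CYP1A1 moved in the same direction, 1.03 ± 0.16 with R5020 against -0.22 ± 0.16 with EtOH, a difference of 1.25 ± 0.23 (limma, Benjamini-Hochberg adjusted p = 0.03). The count of 12 fell to 2 without T47D-Y water replicate 2, 5 without T47D-co water replicate 1, and 7 without T47D-co IFN replicate 1 or T47D-Y water replicate 1, and was 19 without T47D-co IFN replicate 3.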

How the data were processed

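RNA-seq of total RNA from T47D-co and T47D-Y cultures was deposited as 1 table of 25541 entries by 24 libraries, 3 biological replicates in each of 8 groups per the labels. TopHat2 2.0.12, Cufflinks 2.2.1 and GRCh37/hg19 are named in the submitters' processing notes. Neither header nor labels state the unit. The deposited values are a normalized signal that behaves as estimated fragments divided by a factor per library, with the factors set separately in 4 blocks of 6 libraries (line by IFN state). For entries alone at their locus, 97.8 to 98.9% of values per library were whole multiples of a library step within 0.05, and 62.3 to 65.1% over all entries, where fragments were divided between genes.

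The steps (0.637 to 1.36) were undone, and all 24 libraries were scaled by median of ratios over 14201 entries with a mean of at least 50. Total depth was 14141207 to 33607375 fragments over the 24 libraries. The test took the 20162 entries that reached 10 scaled fragments in 3 or more libraries. Another 25 entries under 10 repeated symbols were left out. Log2 values (pseudocount 1) entered limma 3.58.1 (R 4.3.3) with 8 group means, an intensity trend, 16 residual and 8.05 prior degrees of freedom, and two-sided Benjamini-Hochberg adjusted p over all entries tested. Errors after ± on log2 values are SE. Fold changes on this scale understate changes of low genes. Tables were made with Python 3.11.15 and pandas 2.3.3, and the fit was tested on simulated data.

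Genes were named by rule: the 12 largest called negative and 10 largest called positive interactions at a group mean of at least 50, up to 4 called members of each of 17 gene lists, up to 4 of each start and end class, and a set of interferon, AhR and receptor genes. BST2, SAMHD1, TNN, SIPA1L2, H1F0, EIF2S3, EIF4B, IFIH1, SLFN5, DHX58, LGALS3BP, ZNFX1, ADAR, EIF2AK2, OAS3, PML, HELZ2 and the merged IFITM1 and IFITM2 entry were described as class members or chosen after their values were seen. So were RNF213 and CNP. The comparison, its members and the gene lists were chosen with earlier results of these data known. The gain in fragments, the family sums and the ribosomal protein counts were added after the data were seen. IRF9 and IFNAR2 are not analysed here, and the values of 1 called gene are not reported here. Alternatives were other scalings, filters and pseudocounts, voom weights, the 12 EtOH libraries alone, summed loci, a replicate block and each EtOH library left out in turn. Promoters came from the RefSeq table (GRCh38.p14), matched by symbol. No coordinate was moved between that build and the deposited one.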

Additional observations from a re-analysis of the deposited data

Results flagged for a closer look

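The change with IFN differed between T47D-co and T47D-Y, by a test of the interaction itself, for 76 genes (limma, Benjamini-Hochberg adjusted p under 0.05), and the values of those named follow on the log2 scale. Among sensors, effectors and conjugation genes, the interaction was negative for SAMD9L (-2.82), ISG15 (-2.44), IFIT1 (-2.35), IFITM3 (-2.35), IFIT2 (-2.23), DDX60 (-1.98), SAMD9 (-1.86), IFI6 (-1.80), OASL (-1.75), OAS2 (-1.69), IFI27 (-1.67), MX1 (-1.66), DDX60L (-1.59), UBE2L6 (-1.20), HERC6 (-0.66) and TRIM25 (-0.33). It was also negative for the signalling genes IRF7 (-0.78) and STAT2 (-0.32) and for B2M (-0.51) of antigen presentation. Outside the interferon lists, negative values were found for MTMR11 (-0.49), CYP1B1 (-0.46), CA12 (-0.34) and AHR (-0.25).

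Positive interactions were found for DMD-AS2 (2.83), CTD-3126B10.1 (2.11), AL590867.1 (1.74), NPM1P39 (0.90), RPL10AP6 (0.56), RPLP0 (0.34), CIRBP (0.34) and LINC00657 (0.17). The summed loci gave -0.038 for DMD-AS2, 0.046 for CTD-3126B10.1, 0.35 for AL590867.1 and 0.096 for RPL10AP6. Several of these are pseudogenes or antisense genes whose fragments may be divided with a near-identical or overlapping gene, and their values are uncertain for that reason.

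The interaction itself differed between R5020 and EtOH for 12 genes, tested as the difference of the interactions. Among the genes named, the R5020 minus EtOH value was 1.25 for CYP1A1 and 1.07 for CYP1B1. Groups held 3 libraries each, so no single library was screened as standing apart from its group.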

How the results depend on the processing

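The replicate numbers did not pair the libraries: of 18 same-numbered pairs 0 had a correlation of deviations above 0.1 (-0.0429 to 0.0478), and 4 of 12 libraries correlated best with their own number. With the replicate number as a block, 78 interactions were called (12 positive, 66 negative), 70 of them shared with the 76.

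The deposited scale moved most counts: 9526 interactions (9453 positive, 73 negative, 99.2% positive), 8440 IFN genes in T47D-co, 14709 in T47D-Y and 9483 interactions with R5020. Of its 9526 interactions 2221 had a called start difference alone, 1872 an end difference alone, 5330 both and 103 neither, against 18, 6, 52 and 0. On that scale small values turned positive: AHR 0.049, CXCL10 0.26, CYP1A1 0.082, IFNAR1 0.22, IRF1 0.079, JAK1 0.29 and TYK2 0.29. Its blocks were scaled apart by the authors, and the all-gene median there was 0.289.

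Genes with an end difference alone numbered 10 with a pseudocount of 5, 11 with quantile normalization and 3 without both libraries with MT-ATP6 listed at 0, where IFN changed 576 genes in T47D-Y and 6 genes differed between R5020 and EtOH. That last count was 4 with no filter and 26 with upper-quartile scaling, which called 346 interactions with R5020. The cause was not tested. Leaving out 1 library gave 55 (without T47D-Y water replicate 2) to 106 (without T47D-co IFN replicate 3) interactions, 574 to 943 IFN genes in T47D-Y, 2 to 19 R5020 minus EtOH calls, 9 to 25 genes with a start difference alone and 4 to 12 with an end difference alone.

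Values near 0 changed sign elsewhere. CXCL10 was 0.051 with a pseudocount of 0.5 and 0.33 without those 2 libraries, SOCS1 -0.10 with a pseudocount of 5, JAK1 0.013 with quantile normalization and 0.0089 without those 2 libraries, and TYK2 0.0046 with quantile normalization and 0.0071 with voom. With 1 library left out CXCL10 lay between -0.63 and 0.27, JAK1 between -0.029 and 0.0093, TYK2 between -0.075 and 0.048 and SOCS1 between -0.11 and 0.29. Summed loci gave -0.038 for DMD-AS2 and -0.0069 for SOCS1. Over the named genes and settings, 878 values kept direction and side of the threshold, 124 lost a call, 16 gained one and 33 changed sign. Depth limits the genes near 10 fragments, such as CXCL10, whose 95% interval ran between -1.52 and 1.42.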

Other observations

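Ribosomal protein genes, a group chosen after the values were seen and not tested as a group, leaned the same way as RPLP0. Of 73 measured, 66 had a positive interaction and 1 was called (RPLP0), with a median log2 interaction of 0.166 against -0.00629 over all genes. Their median change with IFN was -0.0457 in T47D-co, with 0 called lower, and -0.189 in T47D-Y, with 35 called lower. The median interaction was 0.171 with quantile normalization, 0.174 with upper-quartile scaling and 0.463 on the deposited scale, where the median of all genes was 0.289. With R5020 the median interaction of the 73 genes was 0.00117.

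LAMP3, a lysosomal membrane protein induced by interferon, was among the 12 genes whose interaction differed between R5020 and EtOH. Its R5020 minus EtOH value was -1.64 (limma, Benjamini-Hochberg adjusted p = 8.97e-07), and with EtOH its interaction was -0.01 (limma, Benjamini-Hochberg adjusted p = 0.995). With EtOH it had 936, 876 and 977 scaled fragments in T47D-co with IFN and 166, 186 and 214 with water, against 1313, 1414 and 1419 in T47D-Y with IFN and 292, 246 and 299 with water. With R5020 it had 2655, 2587 and 2477 scaled fragments in T47D-co with IFN and 1544, 1478 and 1591 with water, against 1336, 1455 and 1432 in T47D-Y with IFN and 254, 264 and 285 with water. In T47D-co every R5020 library was above every EtOH library of the same IFN state, with a water mean of 1538 with R5020 and 189 with EtOH. MLX, a transcription factor, also had a negative difference, at -0.58.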
